A study of Homo sapiens with 6 samples.

Results

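Genes that mark the identity of a prostate cell were followed in DU-145-DR/tet-MUC1shRNA cells. The 8 genes were HOXB13, FOXA1 and KLK3 of the luminal, secretory lineage, TP63 of the basal lineage, SYP, CHGA and INSM1 of the neuroendocrine (NE) lineage, and REST, the repressor of neuronal genes. They were chosen by gene symbol, and all 8 were found among the 28008 genes of the count table. DU-145-DR is a human prostate cancer line, made by growing DU-145 cells in docetaxel (DTX) until they resisted it. All 6 libraries were made from this resistant line. The cells carried a short hairpin RNA against MUC1 in the doxycycline-inducible (DOX-inducible) pLKO-tet-puro vector and had been selected in puromycin. DOX-negative cells received the DMSO vehicle (3 libraries) and DOX-positive cells received DOX at 500 ng/ml for a week (3 libraries). As treatment, the labels give DTX resistance for vehicle-treated cells and the hairpin for cells given DOX, so it rests on the study's description that vehicle-treated cells carry the hairpin too. Cells given DOX with a control hairpin were not analysed here, so silencing of MUC1 and exposure to DOX cannot be told apart. Libraries came from triplicate cultures, and nothing states how far those cultures were separate, so p-values measure the spread between these libraries.

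Library totals ranged from 15092691 to 23243713 counts. A floor of 3 counts in a library, which is what a count of 0 allows, was worth from 0.129 to 0.199 CPM, that is, counts scaled to a library of 1000000, and covers counting error only. MUC1, the silenced gene, had 387, 484 and 396 counts without DOX and 75, 74 and 66 with DOX, a log2 fold change of -2.52. DOX-negative replicate 2 stood apart in the table of length-scaled transcript levels (TPM). In it 5 short noncoding RNAs held 34.4% of the TPM, against between 51.2% and 64.4% in the other libraries, so TPM were rescaled here without those RNAs. Genes were tested with the quasi-likelihood test of edgeR, and a gene was called at a Benjamini-Hochberg adjusted p under 0.05 over all 14292 genes that passed the filter on low counts. Of these, 26.7% were called, 13.0% higher and 13.7% lower in DOX-positive cells.

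The normal prostate gland has a luminal layer of secretory cells over a layer of basal cells, with rare NE cells between them. In luminal cells secretory genes depend on the pioneer factor FOXA1, which opens chromatin, and on the homeobox factor HOXB13, which gives the program its prostate character. Basal cells depend on p63, the product of TP63. NE prostate cancer, which can arise under treatment, loses luminal secretory genes and gains the secretory granules and vesicles of neurons, and in most other cells such neuronal genes are held silent by REST.

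Of the 8 genes, only FOXA1 and REST were expressed above the filter. Of all 28008 genes, 51% passed it, 27% had 0 counts in every library and a further 11.7% had at most 3. HOXB13, KLK3, CHGA and INSM1 had 0 counts in each of the 6 libraries. TP63 had at most 4 counts and SYP at most 12 in a library. FOXA1 and REST each had at least 1727 counts in every library. The line therefore had transcripts of the luminal pioneer factor and of the neuronal repressor, while those of the luminal effector, the basal regulator and the NE granule protein were at or near 0, and this was so with and without DOX. In bulk RNA a gene carried by fewer cells and one with less RNA per cell cannot be told apart.

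**Figure D1:**
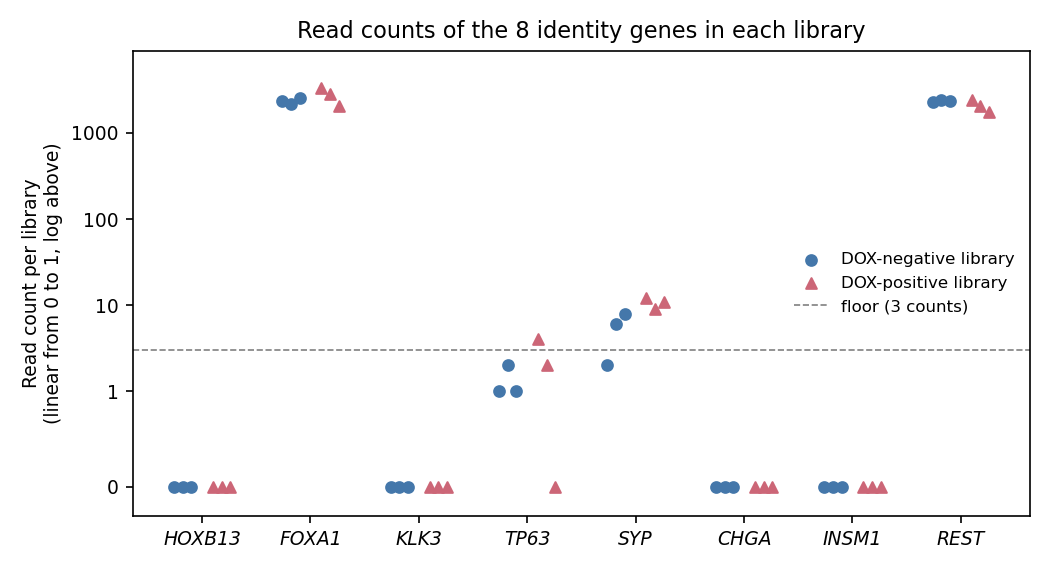
Read counts per library (vertical axis, linear from 0 to 1 and logarithmic above) of the 8 identity genes (horizontal axis) in 3 DOX-negative libraries (circles) and 3 DOX-positive libraries (triangles), with the floor of 3 counts as a dashed line. FOXA1 and REST lie between 1727 and 3340 counts, SYP between 2 and 12, TP63 between 0 and 4, and HOXB13, KLK3, CHGA and INSM1 at 0.

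FOXA1 is a protein-coding gene on chromosome 14 (GRCh38 14:37589984-37596059, minus strand, GENCODE 29). It had 2357, 2185 and 2536 counts without DOX and 3340, 2865 and 2045 with DOX. Scaled to library size, these were 129.7, 112 and 126 CPM without DOX and 146, 149.7 and 137 CPM with DOX. Every DOX-positive library was above every DOX-negative library, and the lowest of the 6 was DOX-negative replicate 2. The mean went from 123 ± 9.53 to 144 ± 6.19 CPM (n = 3 libraries each, ± SD), a log2 fold change of 0.24 (SE 0.0698; adjusted p 0.0150, edgeR) with a 95% interval from 0.091 to 0.38. FOXA1 was thus called higher, by a small margin. Without DOX-negative replicate 2 the log2 fold change was 0.17 and the call was lost (adjusted p 0.0769 by edgeR). On the deposited TPM, which move with the 5 short noncoding RNAs, the direction turned, to -0.15 with a pseudocount of 1 (limma adjusted p 0.705), whereas on rescaled TPM it was 0.21 (limma adjusted p 0.0440).

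Per transcript length, FOXA1 was an abundant transcript. Its rescaled TPM was 102 ± 6.88 without DOX and 118 ± 5.03 with DOX (SD, n = 3 each). It stood above between 91.8% and 93.8% of the genes in a library. Of the genes tested, the one whose log2 CPM followed FOXA1 most closely over the 6 libraries, after centring each gene on its mean, was SEPT10, with a root mean square difference of 0.012 on the log2 scale, followed by FBXO33 (0.022) and ACAP2 (0.028). Among 12362 genes at an average logCPM of at least 1, such small distances belong to genes with the same slight rise, and no relation between these genes follows from them. FOXA1 shares 16 exonic bases with TTC6 on the opposite strand in GENCODE 29, and TTC6 had between 82 and 116 counts.

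REST, on chromosome 4 (GRCh38 4:56907876-56966678, plus strand, GENCODE 29), encodes a zinc finger protein that binds the RE1 element of neuronal genes and recruits histone deacetylases and demethylases. It had 2291, 2405 and 2358 counts without DOX and 2434, 2059 and 1727 counts with DOX. These were 126, 123 and 117 CPM and 106, 108 and 116 CPM. The groups did not overlap, with the DOX-positive libraries below. The mean went from 122 ± 4.46 to 109.9 ± 5.42 CPM (n = 3 libraries each, ± SD), a log2 fold change of -0.15 (SE 0.0670; adjusted p 0.0959, edgeR), which did not pass the threshold. Its 95% interval, from -0.29 to -0.014, is not adjusted for the number of genes. Scaled to total counts alone the value was -0.19 and passed (edgeR adjusted p 0.0412). Across the 15 alternatives the adjusted p lay between 0.0412 and 0.298.

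Without DOX, REST had a rescaled TPM of 43.8 ± 2.56, and with DOX 38.7 ± 2.29 (SD, n = 3 each), above between 81.4% and 83.9% of the genes in a library. The genes with the most similar pattern were CDC40 (root mean square difference 0.015), CRIPAK (0.016) and ACTL6A (0.017). REST shares 23 exonic bases with NOA1 on the opposite strand, and NOA1 had between 494 and 778 counts. The table gives 1 value per gene, so the shortened REST isoform that SRRM4 splicing makes in NE tumors could not be followed. SRRM4 had 0 counts in every library.

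Both genes that could be tested lay apart between the groups, against 39.8% of all genes tested, and 1 of the 2 was called, against 26.7%. With 2 genes, nothing can be read from either share. Because a ratio within a library does not depend on library scaling, the TPM of FOXA1 was also divided by that of REST, a comparison chosen after the values were seen. The ratio was 2.38, 2.11 and 2.49 without DOX and 3.18, 3.23 and 2.74 with DOX, with means of 2.33 ± 0.199 and 3.05 ± 0.266 (SD, n = 3 each). The groups did not overlap. The ratio is given as a description, with no test.

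**Figure D2:**
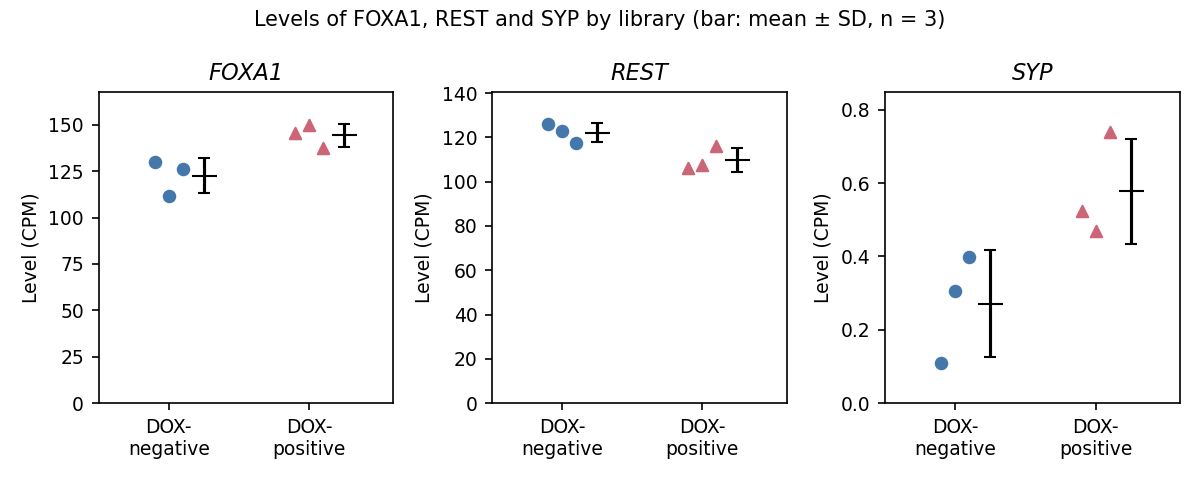
Levels in CPM (vertical axes, each from 0) of FOXA1, REST and SYP in DOX-negative (circles) and DOX-positive (triangles) libraries, with the mean ± SD (n = 3) beside each group. The groups do not overlap for any of the 3 genes, but SYP stays under 0.75 CPM while FOXA1 and REST lie above 100 CPM.

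HOXB13 and KLK3 stand at opposite ends of the luminal program, the one a lineage factor and the other its best known product, prostate-specific antigen. HOXB13 (GRCh38 17:48724763-48729178, minus strand) and KLK3 (19:50854915-50860764, plus strand) had 0 counts in every library. Summed over a group, 0 counts in 57181887 DOX-negative and 57689018 DOX-positive counts allow up to 0.0525 and 0.0520 CPM. No change in either gene was detectable at this depth. KLK3 transcripts can share reads with KLK2, its closest relative, which had 1 count in DOX-negative replicate 3 and 0 counts elsewhere. FOLH1, which encodes prostate-specific membrane antigen, also had 0 counts in every library.

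To place KLK3 and FOXA1 beside their regulatory sequence, the 250 bases before each RefSeq start (GRCh38.p14) are shown, with CpG dinucleotides in capitals. They are shown because the silent and the expressed luminal gene differ in this feature. The KLK3 promoter lies at chr19:50854665-50854914, plus strand, and that of FOXA1 at chr14:37595250-37595499, minus strand. The RefSeq start of FOXA1 lies inside the GENCODE gene, which begins further upstream.
KLK3: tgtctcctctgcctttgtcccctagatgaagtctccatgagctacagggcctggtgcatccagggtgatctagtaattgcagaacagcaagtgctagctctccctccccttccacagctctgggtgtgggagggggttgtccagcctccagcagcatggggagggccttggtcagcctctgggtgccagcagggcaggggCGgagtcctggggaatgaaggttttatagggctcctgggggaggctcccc
FOXA1: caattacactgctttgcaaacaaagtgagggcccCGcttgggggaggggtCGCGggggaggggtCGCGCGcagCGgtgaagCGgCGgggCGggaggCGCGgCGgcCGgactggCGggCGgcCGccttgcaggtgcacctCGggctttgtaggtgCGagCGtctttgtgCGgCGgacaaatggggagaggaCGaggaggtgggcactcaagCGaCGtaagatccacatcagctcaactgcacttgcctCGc
Over the 300 bases from 250 before to 50 after the start, KLK3 had 2 CpG dinucleotides and a ratio of observed to expected CpG of 0.0719, and 6.24% of 35116 RefSeq promoters had a lower one. FOXA1 had 34 and a ratio of 0.966.

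The other kallikreins were also at or near 0. Of 15 kallikrein genes, 6 had 0 counts in every library and 11 had at most 3. None passed the filter, against 51% of all genes. KLK10 had the highest single count, 14 in DOX-positive replicate 1. The HOXB cluster, in contrast, had reads from HOXB2 to HOXB9, the neighbor of HOXB13. HOXB7 (59.2 rescaled TPM without DOX), HOXB6 (28.8) and HOXB9 (27.7) were the most abundant, HOXB1 had 1 count in all, and HOXB13 had none. Of the 8 HOXB genes tested, 3 rose and 0 fell, against 13.0% and 13.7% of all genes. Leaving out each library gave between 1 and 4 higher and 0 lower. HOXB8 changed by 1.06 log2 units (SE 0.279; adjusted p 0.00675, edgeR), HOXB2 by 0.89 (SE 0.237; adjusted p 0.00782, edgeR) and HOXB6 by 0.36 (SE 0.121; adjusted p 0.0319, edgeR). The call of HOXB8 was lost on leaving out DOX-positive replicate 1 (adjusted p 0.0511), and that of HOXB6 on leaving out DOX-negative replicate 3 (adjusted p 0.182) or DOX-positive replicate 1 or 3 (adjusted p 0.0896 and 0.111), or with total counts (adjusted p 0.0607) or limma on rescaled TPM (adjusted p 0.0792). HOXB6 also turned direction on the deposited TPM. Among the genes most related to HOXB13, HOXA13 changed by -0.90 log2 units (SE 0.273; adjusted p 0.0173, edgeR), a call lost on leaving out DOX-negative replicate 1 (adjusted p 0.0885) or DOX-positive replicate 1 or 3 (adjusted p 0.0574 and 0.0833). HOXC13 had a log2 fold change of -0.42 (edgeR adjusted p 0.121), and HOXD13 had 1 count in all. Of the FOXA family, FOXA2 had at most 33 counts in a library and a log2 fold change of 0.77 (edgeR adjusted p 0.131). FOXA3 had 18, 21 and 16 counts without DOX and 6, 9 and 4 with DOX, a log2 fold change of -1.49 (SE 0.457; adjusted p 0.0182, edgeR). Its call was lost on leaving out DOX-negative replicate 1 or 2 (adjusted p 0.0611 and 0.0712) or DOX-positive replicate 1 or 3 (adjusted p 0.0870 and 0.0675). FOXA1 was by far the most abundant of the family, at 102 rescaled TPM without DOX against 0.846 for FOXA2 and 1.44 for FOXA3.

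The luminal list of 25 genes held genes with few or no reads, such as KLK2 and TMPRSS2, beside abundant genes that rose, such as KRT8. In it, 10 genes had at most 3 counts in every library (among them HOXB13, KLK2, KLK3, KLK4, TMPRSS2, ACP3, FOLH1, TRPM8 and GRHL2). Another 15 were tested. Over all genes, 27% had 0 counts in every library and a further 11.7% at most 3, so the luminal list was close to all genes in this. Of the 15 tested, 7 rose and 5 fell, against 13.0% and 13.7% of all genes. The median log2 fold change was 0.22 against -0.0034 over all genes tested. Leaving out each library gave 6 or 7 higher and between 2 and 5 lower. ESRP1, a splicing factor of epithelial cells, had 166, 148 and 149 counts without DOX and 465, 666 and 313 with DOX, a log2 fold change of 1.66 (SE 0.169; adjusted p 1.80e-07, edgeR). E-cadherin (CDH1) changed by 0.92 log2 units (SE 0.0831; adjusted p 3.01e-08, edgeR). The luminal keratins KRT19, KRT8 and KRT18 were the most abundant genes of the list, at 383, 448 and 420.1 rescaled TPM without DOX, and rose by 1.00, 0.84 and 0.81 on the log2 scale (edgeR adjusted p 1.37e-10, 1.38e-08 and 1.61e-09). Next to these, the rise of FOXA1 was the smallest of the 7.

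Other genes of the list did not share a direction. NDRG1, which responds to stress, rose by 0.79 log2 units (SE 0.0825; adjusted p 2.72e-07, edgeR). GATA2, a zinc finger transcription factor, fell by 0.65 on the log2 scale (SE 0.131; adjusted p 7.39e-04, edgeR). PMEPA1, which restrains TGF-β signaling, changed by -0.46 log2 units (SE 0.112; adjusted p 0.00384, edgeR). The 3 other calls of lower genes were each lost when single libraries were left out. STEAP2 changed by -0.35 log2 units (edgeR adjusted p 0.0106), and its call was lost on leaving out DOX-negative replicate 1 (adjusted p 0.0719) or DOX-positive replicate 1 or 3 (adjusted p 0.0621 and 0.0523), or with limma on rescaled TPM (adjusted p 0.0551). ABCC4 changed by -0.23 log2 units (edgeR adjusted p 0.0118), and its call was lost on leaving out DOX-negative replicate 1 (adjusted p 0.0654) or DOX-positive replicate 1 (adjusted p 0.0621). FKBP5, a cochaperone, changed by -0.18 log2 units (edgeR adjusted p 0.0453), and its call was lost on leaving out DOX-negative replicate 1 or 3 (adjusted p 0.120 and 0.188) or DOX-positive replicate 1 or 3 (adjusted p 0.116 and 0.146), or with RLE factors (adjusted p 0.0524), no filter (adjusted p 0.0546) or limma on rescaled TPM (adjusted p 0.0648). The log2 fold changes of SLC45A3 (-0.64, edgeR adjusted p 0.0509) and STEAP1 (0.17, edgeR adjusted p 0.408) did not pass.

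TP63 (GRCh38 3:189631416-189897279, plus strand) had 1, 2 and 1 counts without DOX and 4, 2 and 0 with DOX. The groups overlapped, at 4 counts in all without DOX and 6 with DOX. Fitted without a filter on low counts, where 19.6% of 20442 genes were called, its log2 fold change was 0.52 (SE 1.32, edgeR adjusted p 0.838), an error so wide that nothing about its change can be read at this depth. TP73, a relative of TP63, had at most 9 counts in a library.

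Genes that accompany TP63 in basal cells were read from a list. Of its 25 genes, KRT5 and KRT17 had at most 3 counts in every library, and TP63, KRT14, KRT6A, DSG3, NGFR and TRIM29 failed the filter with at most 21. Fitted without a filter, TRIM29 was called lower, at -3.72 log2 units (edgeR adjusted p 0.0313). It had 4, 11 and 3 counts without DOX and 0, 1 and 0 with DOX, near the floor. In that fit NGFR (-1.42), KRT14 (-2.39), DSG3 (-0.69) and KRT6A (2.19) did not pass (edgeR adjusted p 0.148, 0.361, 0.762 and 0.427). Of the 17 tested, 9 rose and 2 fell, against 13.0% and 13.7% of all genes, and the median log2 fold change was 0.35. Leaving out each library gave between 7 and 9 higher and between 0 and 2 lower. Among the genes that rose, LAMB3 and LAMA3 encode laminin chains, ITGA6 and ITGB4 the integrin that binds laminin, PERP a desmosome protein, SFN a 14-3-3 protein and JAG1 a NOTCH ligand. ITGA6 changed by 0.60 log2 units (SE 0.0645; adjusted p 3.96e-07, edgeR), ITGB4 by 0.58 (SE 0.0725; adjusted p 3.04e-06, edgeR) and LAMB3 by 0.47 (SE 0.0671; adjusted p 1.77e-05, edgeR). PERP, which p63 can induce, changed by 0.53 log2 units and SFN by 0.50 (edgeR adjusted p 1.91e-06 and 1.48e-05). TP63 itself was at or near 0, and whether p63 had a part in these changes was not tested. The most abundant of the list were SFN (246 rescaled TPM without DOX), LAMB3 (148) and PERP (96.7). The 2 genes that fell were DSC3, a desmosomal cadherin (log2 fold change -0.44, adjusted p 0.00815 by edgeR), and JAG2, a NOTCH ligand (-0.26, adjusted p 0.0299). The DSC3 call was lost on leaving out DOX-positive replicate 1 (adjusted p 0.0684), or with limma on rescaled TPM (adjusted p 0.0556), and the JAG2 call on leaving out DOX-negative replicate 1 or 2 (adjusted p 0.0588 and 0.118) or DOX-positive replicate 1 or 3 (adjusted p 0.0726 and 0.0864), or with limma on rescaled TPM (adjusted p 0.0703). LAMA3, the smallest rise at 0.21, turned direction on the deposited TPM, and its call was lost on leaving out DOX-negative replicate 3 (adjusted p 0.207) or DOX-positive replicate 1, 2 or 3 (adjusted p 0.0580, 0.0590 and 0.0864), or with total counts (adjusted p 0.0898) or limma on rescaled TPM (adjusted p 0.183). JAG1 changed by 0.57 log2 units (edgeR adjusted p 0.0183), and its call was lost on leaving out DOX-negative replicate 2 or 3 (adjusted p 0.0920 and 0.0540) or DOX-positive replicate 3 (adjusted p 0.0565), or with limma on rescaled TPM (adjusted p 0.0648).

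SYP, on the X chromosome (GRCh38 X:49187804-49200259, minus strand), encodes synaptophysin, a membrane protein of synaptic vesicles and a standard NE stain. It had 2, 6 and 8 counts without DOX and 12, 9 and 11 with DOX, or 0.110, 0.307 and 0.398 CPM and 0.523, 0.470 and 0.740 CPM. The groups did not overlap, with 16 counts in all without DOX and 32 with DOX, and DOX-negative replicate 1 was at or under the floor. Among the 6150 genes that had a count and failed the filter, 3.51% lay apart in this direction. These take in 3286 genes with at most 3 counts in every library, so the share is not matched to the depth of SYP. How rare such a separation is at that depth cannot be read from it. Fitted without a filter, the log2 fold change was 1.03 (SE 0.660, edgeR adjusted p 0.313), which did not pass. The two-sided exact permutation test gave p = 0.1, the smallest that 3 against 3 libraries allow, so it could not have passed. Even with DOX the level was 0.680 ± 0.172 rescaled TPM (SD, n = 3), against 0.324 ± 0.171 without. SYP shares 68 exonic bases with SYP-AS1 on the opposite strand, and SYP-AS1 had at most 3 counts. Related vesicle proteins that are found in many cell types were present, among them SYPL1 (201 rescaled TPM without DOX, log2 fold change -0.079, edgeR adjusted p 0.430) and SYNGR2 (112 rescaled TPM, log2 fold change 0.18, edgeR adjusted p 0.0731). SYNGR1 fell by 0.73 on the log2 scale (SE 0.139; adjusted p 4.05e-04, edgeR).

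CHGA encodes chromogranin A, the core protein of dense secretory granules, and lies at GRCh38 14:92923080-92935293 (plus strand). INSM1, a gene of 1 exon at GRCh38 20:20368121-20370949 (plus strand), encodes a zinc finger factor that drives NE differentiation. Both had 0 counts in all 6 libraries, and the upper limits given for HOXB13 apply. Several of their relatives were also at or near 0. Of 7 granin genes, CHGA and CHGB had 0 counts, SCG3 at most 3 and SCG2 at most 7. PCSK1N (14.8 rescaled TPM without DOX) and SCG5 (1.65) were transcribed without a call, at log2 fold changes of 0.23 and 0.60 (edgeR adjusted p 0.410 and 0.178). VGF had 21, 12 and 11 counts without DOX and 35, 54 and 18 with DOX, a log2 fold change of 1.28 (SE 0.396; adjusted p 0.0194, edgeR), and its call was lost on leaving out DOX-negative replicate 2 or 3 (adjusted p 0.0741 and 0.0782) or DOX-positive replicate 2 (adjusted p 0.150). INSM2 had between 2 and 5 counts. Of the other factors that share the N-terminal SNAG repression motif of INSM1, SNAI2 changed by 0.48 log2 units (edgeR adjusted p 0.0424), with the call lost on leaving out DOX-negative replicate 2 or 3 (adjusted p 0.133 and 0.148) or DOX-positive replicate 1 or 3 (adjusted p 0.192 and 0.0835), or with DESeq2 (adjusted p 0.0534), total counts (adjusted p 0.0634) or limma on rescaled TPM (adjusted p 0.0754). SNAI1 had a log2 fold change of -0.51 (edgeR adjusted p 0.0721), which did not pass.

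The CHGA promoter is shown because it has a higher CpG ratio than that of KLK3, while the gene is equally silent. It lies at chr14:92922900-92923149, plus strand, and that of REST, with the highest CpG ratio of the member promoters, at chr4:56907650-56907899, plus strand. Both RefSeq starts lie shortly inside the GENCODE genes.
CHGA: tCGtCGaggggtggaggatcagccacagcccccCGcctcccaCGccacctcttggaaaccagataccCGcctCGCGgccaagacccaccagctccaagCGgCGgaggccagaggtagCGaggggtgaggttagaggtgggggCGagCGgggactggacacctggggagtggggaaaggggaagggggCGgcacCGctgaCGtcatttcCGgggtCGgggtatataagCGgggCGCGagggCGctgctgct
REST: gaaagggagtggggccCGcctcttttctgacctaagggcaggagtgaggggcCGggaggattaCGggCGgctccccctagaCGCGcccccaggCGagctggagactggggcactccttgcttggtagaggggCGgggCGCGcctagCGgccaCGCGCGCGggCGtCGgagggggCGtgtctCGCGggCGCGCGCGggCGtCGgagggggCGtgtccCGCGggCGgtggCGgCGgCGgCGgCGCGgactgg
The ratio of observed to expected CpG was 0.678 for CHGA, 1.08 for this REST start and 0.981 for the second REST start in the table. It was 0.918 for SYP and 0.491 for TP63, and the median over all promoters was 0.579. Among these 6 members, the expressed starts, of FOXA1 and REST, had higher ratios than those of SYP, CHGA, TP63 and KLK3. SYP, with at most 12 counts, lay close to FOXA1. HOXB13 and INSM1, at 0 counts, had no entry in the set of promoters used here, so this order leaves them out. The CHGA promoter holds the cyclic AMP response element TGACGTCA. The element is shown in capitals, and with its flanking bases it spans chr14:92923090-92923109.
CHGA element: caccgcTGACGTCAtttccg
It starts 54 bases before the transcription start, and 1.85% of promoters hold it. A match is a description of the letters and not of a bound site. The core of the RE1 element, searched on both strands as CAGCACC and GGACAG with 2 bases between them and at most 2 mismatches, was in none of the 6 member promoters in the table and in 2.03% of all promoters. That says only that these letters are not in this window.

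**Figure D3:**
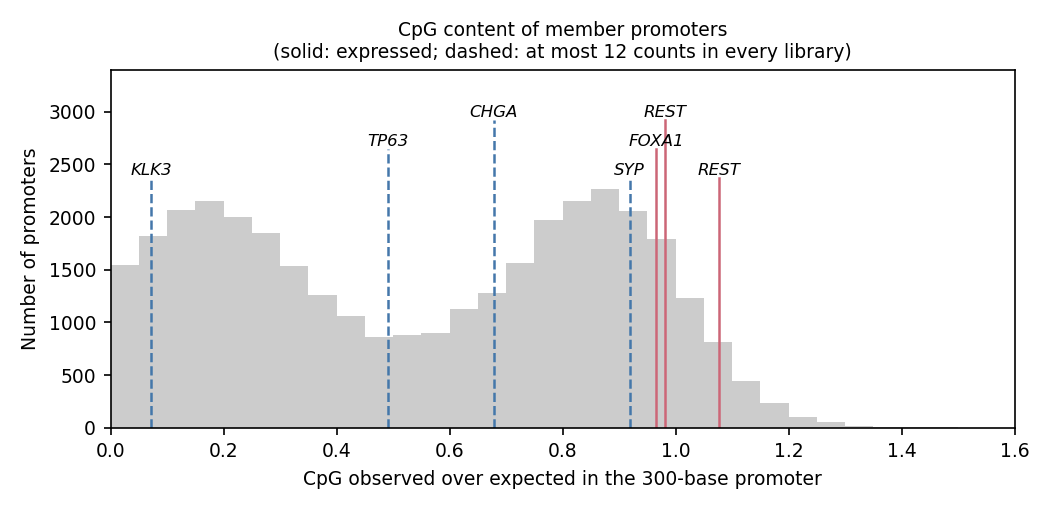
Number of RefSeq promoters (vertical axis, 300 bases each) by their ratio of observed to expected CpG (horizontal axis). Lines mark the 6 member genes with an entry in this set, solid for FOXA1 and both REST starts and dashed for KLK3, TP63, CHGA and SYP. KLK3 lies at 0.0719 and FOXA1 at 0.966, while SYP at 0.918 lies beside FOXA1.

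The wider NE list was largely silent too. Over all genes, 27% had 0 counts in every library, a further 11.7% had at most 3 and 51% passed the filter. Of 36 genes in the NE list, 13 had 0 counts in every library and 21 had at most 3. A further 6 failed the filter and 9 were tested. NEUROD1, POU3F4, MYCN and SRRM4, which drive NE states, were among those at 0, and POU3F2 had at most 6 counts. Of the 9 tested, 1 rose and 1 fell, against 13.0% and 13.7% of all genes, and leaving out each library gave 1 or 2 in each direction. SYT1, a vesicle calcium sensor, rose by 0.44 log2 units (SE 0.108; adjusted p 0.00446, edgeR) and ENO2, a neuronal enolase, fell by 0.44 on the log2 scale (SE 0.0896; adjusted p 8.42e-04, edgeR). The median of the 9 was 0.093. DLL3, a NOTCH ligand and drug target in NE tumors, had 42, 43 and 32 counts without DOX and 30, 23 and 20 with DOX, a log2 fold change of -0.66 (SE 0.301; adjusted p 0.111, edgeR), which did not pass. Another 2 genes of the list were abundant. UCHL1, a deubiquitinase of neurons that many cancer lines also make, had 18037, 18087 and 20906 counts without DOX and a rescaled TPM of 3019.8, and ranked 29th of all genes. NKX2-1, a factor of lung and thyroid that also marks some NE tumors, had 1964, 2154 and 2352 counts without DOX and 2729, 1782 and 1641 with DOX, at 129 and 122 rescaled TPM. Their log2 fold changes were -0.16 and -0.056 (edgeR adjusted p 0.0769 and 0.649). NKX2-1 was thus transcribed at about the level of FOXA1, in cells without INSM1 or CHGA reads.

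**Figure D4:**
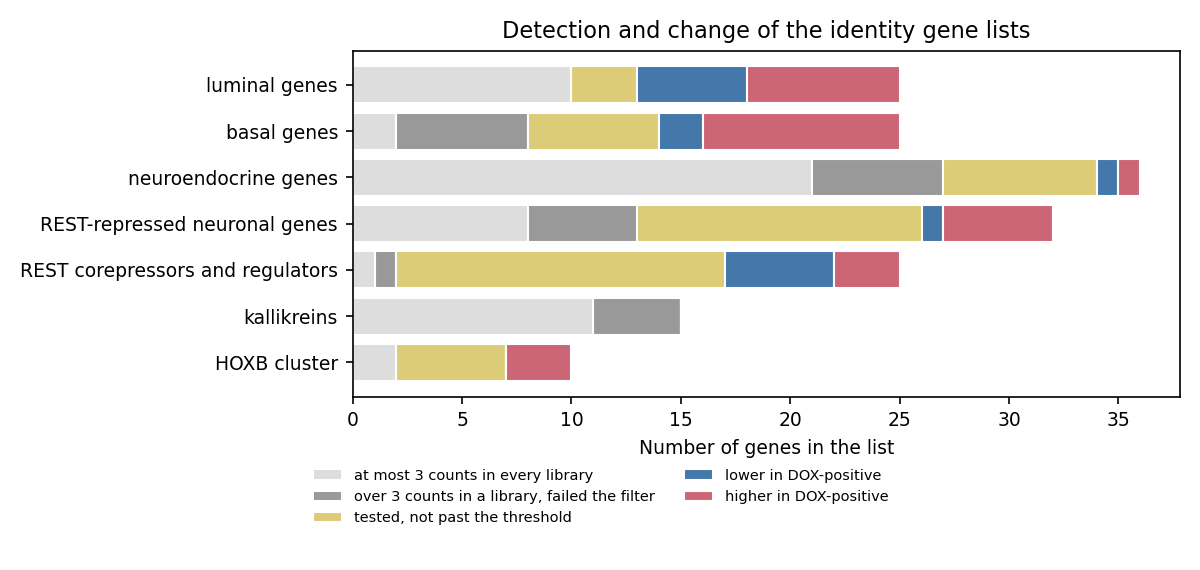
Number of genes (horizontal axis) in 7 lists of identity genes, divided into those with at most 3 counts in every library, those that failed the filter with more, and those tested, which were not called, lower or higher in DOX-positive cells. In the NE list 21 of 36 genes were at or under the floor, against 2 of 25 basal genes and 10 of 25 luminal genes. Over all genes, 27% had 0 counts in every library and a further 11.7% at most 3.

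REST acts through corepressors such as the CoREST and SIN3 complexes. Of 25 genes for corepressors and regulators of REST, 23 were tested, 3 rose and 5 fell, against 13.0% and 13.7% of all genes, with a median log2 fold change of -0.10. RCOR2, a CoREST scaffold, failed the filter with at most 12 counts, and SRRM4 had none. Leaving out each library gave 2 or 3 higher and between 2 and 5 lower. HDAC1 (138 rescaled TPM without DOX), KDM1A (89.5) and USP7 (78.9) were the most abundant, and their log2 fold changes of -0.031, -0.16 and 0.054 did not pass (edgeR adjusted p 0.787, 0.119 and 0.586). RCOR1, the scaffold of the CoREST complex, rose by 0.30 log2 units (SE 0.0629; adjusted p 0.00101, edgeR). CTDSP2, of a family of phosphatases that act with REST, rose by 0.30 log2 units (SE 0.0688; adjusted p 0.00227, edgeR). CTDSP1, of the same family, rose by 0.29 log2 units (edgeR adjusted p 0.0207), a call lost on leaving out DOX-negative replicate 1 or 3 (adjusted p 0.0841 and 0.0610) or DOX-positive replicate 1 or 3 (adjusted p 0.0509 and 0.0571). These 3 rises turned direction on the deposited TPM. SRRM3, a neural splicing factor related to SRRM4, had 26, 19 and 21 counts without DOX and 6, 9 and 6 with DOX, a log2 fold change of -1.61 (SE 0.436; adjusted p 0.00851, edgeR), and its call was lost on leaving out DOX-negative replicate 1 (adjusted p 0.0565) or DOX-positive replicate 1 (adjusted p 0.0558). On the log2 scale EHMT2 (-0.29) and SIN3B (-0.24) were lower at edgeR adjusted p of 0.0263 and 0.0338. The EHMT2 call was lost on leaving out DOX-negative replicate 2 (adjusted p 0.135) or DOX-positive replicate 2 or 3 (adjusted p 0.0804 and 0.0870), or with limma on rescaled TPM (adjusted p 0.208), and the SIN3B call on leaving out DOX-negative replicate 1 or 2 (adjusted p 0.0881 and 0.121) or DOX-positive replicate 1 or 2 (adjusted p 0.0803 and 0.106), or with limma on rescaled TPM (adjusted p 0.0759).

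Neuronal genes that REST is known to repress were examined beside it. Of 32 such genes, 7 of which are also in the NE list, 8 had at most 3 counts in every library, 5 more failed the filter, and 19 were tested. Of these, 5 rose and 1 fell, against 13.0% and 13.7% of all genes, and the median log2 fold change was 0.35. Leaving out each library gave between 2 and 4 higher and 1 lower. TUBB3, a neuronal tubulin and the most abundant of the list at 81.1 rescaled TPM without DOX, rose by 0.50 log2 units (SE 0.0782; adjusted p 6.19e-05, edgeR). The neurotrophin BDNF rose by 0.41 log2 units (SE 0.0804; adjusted p 5.39e-04, edgeR). STX1A and CELSR3 changed by 0.46 and 0.36 log2 units (edgeR adjusted p 0.0284 and 0.0126). The STX1A call was lost on leaving out DOX-negative replicate 1 or 3 (adjusted p 0.110 and 0.135) or DOX-positive replicate 1 or 3 (adjusted p 0.0963 and 0.0747), or with limma on rescaled TPM (adjusted p 0.0653), and the CELSR3 call on leaving out DOX-negative replicate 3 (adjusted p 0.0840) or DOX-positive replicate 1 (adjusted p 0.0546), or with limma on rescaled TPM (adjusted p 0.143). CELSR3 also turned direction on the deposited TPM. VGF, described with the granins, was the other gene that rose. SYT7 fell by 0.70 on the log2 scale (SE 0.136; adjusted p 5.23e-04, edgeR). NEFL, a neurofilament gene (18.5 rescaled TPM without DOX), had a log2 fold change of 0.082 (edgeR adjusted p 0.565). Whether these changes bear on the lower REST values was not tested.

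**Figure D5:**
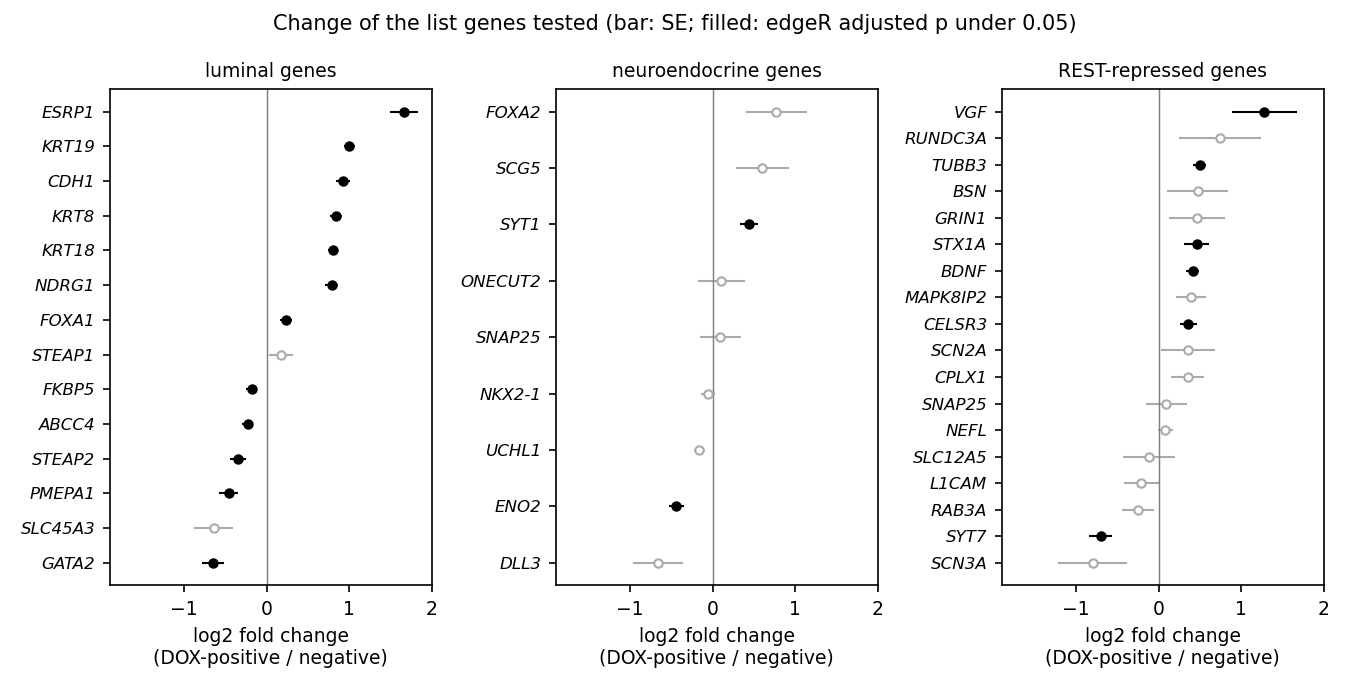
Log2 fold change in DOX-positive against DOX-negative cells (horizontal axes, bars give the SE) of the tested and reported genes of the luminal, NE and REST-repressed lists, filled where the edgeR adjusted p was under 0.05. FOXA1, at 0.24, is the smallest of the 7 luminal rises, and 2 of the 9 NE genes tested are filled, SYT1 at 0.44 and ENO2 at -0.44, where 26.7% of all genes were called.

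Markers of cells that a prostate culture should lack were counted as a check of the labels. Of 17 tuft, stromal and immune markers, CD3E had 0 counts, and PTPRC, DCN, LUM and PDGFRA were among those with at most 3 in a library. The 5 that passed the filter were CD68, the stromal markers COL1A1, ACTA2 and COL3A1, and the tuft marker AVIL. In a library, COL1A1 had between 66 and 96 counts, ACTA2 between 15 and 50, AVIL between 16 and 33 and COL3A1 between 6 and 14. The summed level lay between 99.3 and 115 CPM without DOX and between 167 and 189.9 CPM with DOX. Most of that sum was CD68, a lysosomal protein that epithelial lines also make, which rose from 101 ± 7.94 to 169 ± 10.5 CPM (n = 3 libraries each, ± SD), at an adjusted p of 8.39e-08 by edgeR. Its part in the values of FOXA1 and REST was not tested. Of the markers that define the labelled tissue, the luminal keratins and CDH1 were abundant, while HOXB13, KLK3 and FOLH1 were at 0 in every library.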

How the data were processed

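RNA of DU-145-DR/tet-MUC1shRNA cells was sequenced from TruSeq Stranded mRNA libraries, 3 DOX-negative and 3 DOX-positive by their titles. Per the submitters' processing notes, the authors used STAR, GRCh38 (hg38) and DESeq2. The annotation, counting step, strand setting and versions are not given in the sources used here. The authors deposited raw counts for 28008 genes and TPM values for 25546 genes, neither with mitochondrially encoded genes. Table columns, which abbreviate the line differently from the titles, were assigned by their DOX state and number.

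The counts were fitted in R 4.3.3 by edgeR 4.0.16 (filterByExpr, TMM factors between 0.986 and 1.03, glmQLFit, glmQLFTest, two-sided, group alone), a procedure tested on simulated data. The SE was |log2 fold change| over the root of F, and CPM used TMM-scaled totals. TPM were rescaled without RN7SL1, RN7SL2, RN7SL3, RN7SK and RPPH1. Alternatives were DESeq2 1.42.0, RLE factors, unscaled totals, no filter, a minimum of 10 counts in each library, a block on replicate number, limma 3.58.1 on log2(TPM + 1), log2(TPM + 0.1) and rescaled log2(TPM + 1), which understate changes of low genes, and omission of each library. Libraries of the same group were not duplicates (chi-square per degree of freedom 3.76 to 20.2).

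The members and 14 gene lists were chosen with earlier results of these data known. ACP3 was found under an older symbol. Some genes of the lists are not reported here. Named were the members, per list the called genes (up to 8 by size) and the 3 most abundant, and 3 nearest patterns per tested member. Other genes, such as those at or near 0, overlapping genes, further called genes of small groups, SLC45A3, STEAP1, DLL3, SNAI1 and HOXC13, were named after their values were seen. Positions are from GENCODE 29 (GRCh38) and promoters from RefSeq (GRCh38.p14).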

Additional observations from a re-analysis of the deposited data

How the results depend on the processing

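FOXA1 kept its direction in 13 of 15 alternatives and its call in 12, and REST kept its direction in all 15 and its side of the threshold in 14. The count of called members was 1, and became 2 with total counts, where REST passed, and 0 on the deposited TPM with either pseudocount. It was between 0 and 1 when each library was left out, at 0 without DOX-negative replicate 2. The number of genes called, 3816, became 443 on log2(TPM + 1) and 408 on log2(TPM + 0.1), where 6.77% and 7.11% of calls were higher against 48.8% with the counts and the median log2 fold change was -0.32 and -0.39. The number of genes called lay between 2784 and 3645 when each library was left out. On these TPM, with pseudocounts of 1 and 0.1, the direction turned to -0.15 and -0.16 for FOXA1, -0.17 and -0.18 for LAMA3, -0.089 and -0.090 for RCOR1, -0.096 and -0.10 for CTDSP1, -0.090 and -0.091 for CTDSP2, -0.037 and -0.032 for CELSR3, and -0.030 and -0.026 for HOXB6. Rescaling TPM without the 5 short noncoding RNAs gave 3097 calls and 0.21 for FOXA1. Otherwise the cause of these shifts was not tested. Over the genes given with a test, 558 values under an alternative kept direction and side of the threshold, 160 lost a call with the direction kept, 1 gained one and 14 turned. Of the list counts, 346 stayed within 1.5 times and 74 did not. The replicate numbers were not taken to pair libraries, since same-numbered libraries deviated with correlations of -0.019, -0.095 and -0.027. With the replicate block, 3158 genes and 1 member were called, FOXA1 at 0.24 (adjusted p 0.0417) and REST at -0.15 (0.181). The block ended the calls of FKBP5 (adjusted p 0.108), LAMA3 (0.0588), JAG2 (0.0623), SIN3B (0.0764), EHMT2 (0.0524) and HOXB6 (0.0522). With 2 to 12 counts a library, depth limits what can be said of SYP, and of the 4 genes at 0 only an upper limit can be given.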
